A study of Mus musculus with 29 samples.

Results

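The colony-stimulating factors and their receptors were followed through the colons of mice with 6 forms of colitis. The set held 10 genes, chosen by name and matched to Ensembl gene identifiers of 54532 genes in the count table: the ligands Csf1, Il34, Csf2, Csf3, Flt3l and Kitl, and the receptor genes Csf1r, Csf2ra, Csf2rb and Csf2rb2. All 10 were present in the table, and 9 of them had a mean of at least 3 reads per mouse, the minimum for the tests of 18616 genes in all. Csf2 did not reach that minimum, and Csf3 reached it only through 1 DSS-treated mouse. Both are given as read counts with no test, and 8 members were tested.

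RNA of colon segments was sequenced from 29 mice in 9 groups, 1 library each, and every colitis model was set against its own untreated controls. The wild-type controls were untreated Balb/C mice (n = 3). They served 3 models made in Balb/C mice: DSS (n = 3; 3% dextran sulphate sodium in the drinking water for 5 days, culled at day 10), DNBS (n = 3; 3 mg dinitrobenzene sulphonic acid in 200 µl of 50% EtOH given rectally) and the IL-10 model (n = 4). The labels of the IL-10 model name an IL10 blocking antibody and a dose of 750 µg of anti-IL-10R for up to 4 weeks, whereas the methods of the study describe Il10-/- mice. TRUC mice (n = 4) were Balb/C Tbx21-/- x Rag2-/- and untreated, and were compared with untreated Balb/C Rag2-/- mice (n = 3). In the last 2 models the mice were labelled C57BL/6 Rag1-/-: T cell transfer colitis (TCT, n = 3; 500000 naive CD4+ T cells, culled after 6 to 8 weeks) and anti-CD40 colitis (n = 3; 50 µg of agonist antibody, culled after 7 days), both set against untreated mice with the same label (n = 3). All Rag-deficient groups, controls included, lack mature T and B cells of their own, and the TCT mice hold only transferred T cells. No label states an age. The count identifier of TRUC mouse 4 reads TRUC_8W, and whether this is an age is not stated. Identifiers of TRUC mice 4 and 5 follow another pattern than those of mice 2 and 3. The methods of the study name another strain or cull time for some of these models than the labels do. The labels are followed here.

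Library totals lay between 10725564 and 14977094 counted reads (median 12287039), so that a limit of 3 reads corresponded to between 0.179 and 0.313 CPM, the unit of level used below: a gene's reads scaled to a common library size with TMM factors. Values are given mouse by mouse in the order of the replicate numbers of the labels. The deleted genes were checked first. Rag2 transcript stood at 1.55 CPM on average in the Rag2-/- controls, 5.72 in TRUC mice, 1.15 in the untreated libraries labelled Rag1-/-, 5.48 after anti-CD40 and 0 in TCT. Rag1 transcript stood at 2.35 CPM in TCT and at 0.294 CPM or less in every other library. Both the untreated and the anti-CD40 libraries with a Rag1-/- label therefore went with the Rag2-/- groups and not with TCT, which goes against their labels, although the treatment protocol itself speaks of Rag2-/- recipients. For this reason TCT is also given against the wild-type controls and anti-CD40 against the Rag2-/- controls. By the labels the wild-type controls differ from TCT in strain, Rag genotype and lymphocytes, and 4 of 4 B cell markers were lower in TCT. The Rag2-/- controls differ from anti-CD40 in labelled strain. In these added comparisons colitis cannot be told apart from such differences. The Rag1 and Rag2 transcripts also set TCT apart from its own controls, the untreated libraries labelled Rag1-/-. Colitis and Rag genotype therefore cannot be told apart in the main TCT comparison either. Tbx21 transcript was present in TRUC mice at 3.09 CPM against 0.231 in their controls, so reads on this gene do not show its deletion. One DSS-treated mouse, number 8, stood apart: its 10 neutrophil markers summed to 2978 CPM against 550.5 and 808.3 in the other 2 DSS-treated mice, and changes of the members in DSS are given with and without it.

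Colony-stimulating factors are secreted or membrane-bound proteins that keep myeloid cells alive, drive their production in the bone marrow and tune their activity in tissue. CSF1 and IL-34 both bind the receptor tyrosine kinase CSF1R on monocytes and macrophages; GM-CSF (Csf2) binds a receptor made of the alpha chain CSF2RA and the common beta chain CSF2RB, which IL-3 and IL-5 also use; and G-CSF (Csf3) drives neutrophil production through CSF3R. FLT3 ligand (Flt3l) feeds dendritic cell precursors through FLT3, and stem cell factor (Kitl) acts through KIT on mast cells, on haematopoietic precursors and, in the gut wall, on the interstitial cells of Cajal that pace its contractions. Mice carry a second beta chain gene, Csf2rb2, which pairs with the IL-3 receptor alpha chain.

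Receptor genes carried most of the change. Csf2ra was higher than in controls in 5 of the 6 models, Csf2rb and Csf2rb2 were higher in 4, and Csf1r was higher in 3 (edgeR quasi-likelihood test, Benjamini-Hochberg adjusted p under 0.05 over all genes tested). Among the ligands, Csf1 was higher in DSS and TCT, Il34 was higher in the IL-10 model, TCT and anti-CD40, and Kitl was lower in TRUC, TCT and anti-CD40. No model moved Flt3l past the threshold. All these calls come from 1 fit of all 9 groups. Fits of the 2 groups alone, in edgeR and in DESeq2, also called Csf2rb in DNBS and Csf1r, Csf2rb and Csf2rb2 in anti-CD40. DESeq2 added Csf1r in the IL-10 model. The edgeR fit of 2 groups lost Csf2ra in DSS and Il34 in the IL-10 model.

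Counted by model, 5 of 8 members passed in TRUC, 4 higher and 1 lower, where 45.8% of all genes tested passed, 22.4% higher and 23.4% lower. In DSS 5 passed, all of them higher and all also without mouse 8, against 34.0% of all genes in either direction and 17.7% higher. In DNBS edgeR called none of the 8, although Csf1 (higher) and Flt3l (lower) had an unadjusted p under 0.05 and DESeq2 called 1, Csf2rb; of all genes 6.17% passed and 3.95% were higher. The IL-10 model had 4 that were higher, against 53.3% in either direction and 27.2% higher. TCT had 6 higher and 1 lower (of all 18616 genes 30.1% passed, 16.1% higher, and 2609 were lower), and anti-CD40 2 higher and 1 lower (21.6% passed, 10.9% higher and 10.7% lower). Read against all genes passing in either direction, the members' share was larger in DSS and TCT, and not larger in the IL-10 model or DNBS. In TRUC and anti-CD40 it was above the share of all genes but near it for a set of 8. The anti-CD40 count ranged from 1 to 3 with 1 mouse left out, and was 6 in fits of its 2 groups alone. The shares were not tested. The median log2 change of the 8 members was highest in TCT (1.32) and DSS (1.24, or 0.71 without mouse 8), then anti-CD40 (0.63), TRUC and the IL-10 model (0.61 each) and DNBS (0.25), whereas the median over all genes tested lay between -0.03 and 0.02 in the same comparisons. DSS, DNBS and the IL-10 model share their control mice, as do TCT and anti-CD40, so the values of models with the same controls are not independent of each other.

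**Figure D1:**
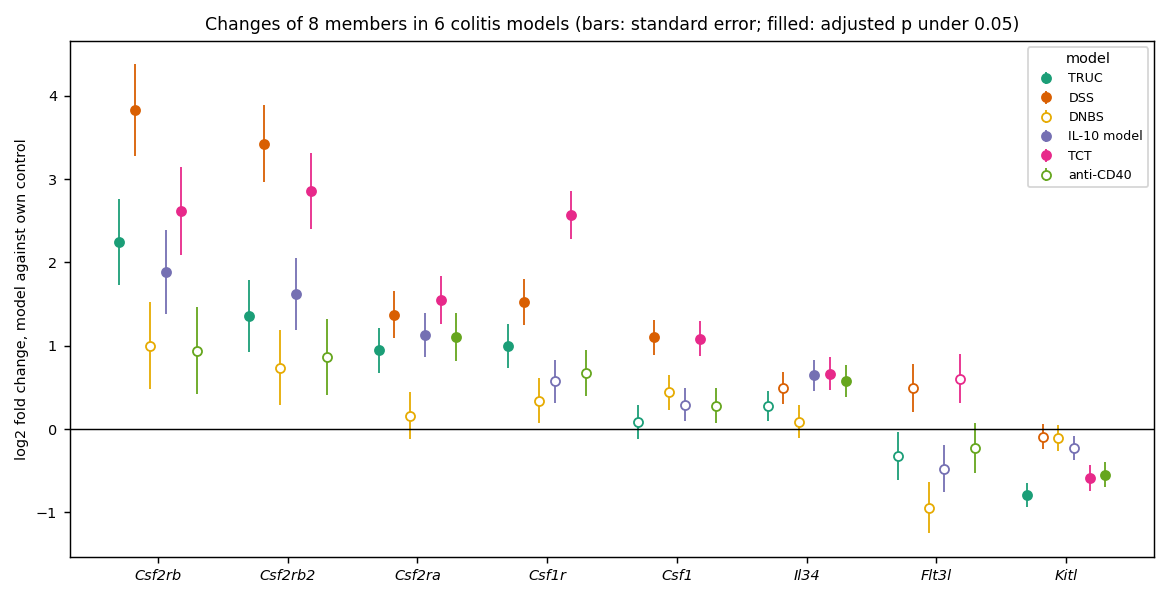
Log2 fold change of 8 members (x axis) in each of 6 colitis models against its own control, with the standard error as a bar and a filled symbol where the adjusted p was under 0.05. The receptor genes at the left lie above 0 in all 6 models, from 0.16 (Csf2ra, DNBS) to 3.83 (Csf2rb, DSS), while Kitl at the right lies below 0 in all 6; TCT and anti-CD40 are drawn against the libraries labelled Rag1-/- control.

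Csf2ra, the alpha chain that gives the GM-CSF receptor its specificity, lies on chr19:61223957-61228429 of GRCm38, minus strand. Its promoter window and that of Csf2rb2 are shown because these receptor genes moved in most models and because Spi1, which encodes the myeloid factor PU.1, was the gene whose level followed Csf2ra most closely. The windows run from 250 bases before to 50 bases after the RefSeq transcript start on GRCm38.p6, at chr19:61228369-61228668 (minus strand) for Csf2ra and at chr15:78305672-78305971 (minus strand) for Csf2rb2. Capitals mark the letters GAGGAA, a core form of the PU.1 motif, or their reverse complement TTCCTC on the printed strand.
Csf2ra: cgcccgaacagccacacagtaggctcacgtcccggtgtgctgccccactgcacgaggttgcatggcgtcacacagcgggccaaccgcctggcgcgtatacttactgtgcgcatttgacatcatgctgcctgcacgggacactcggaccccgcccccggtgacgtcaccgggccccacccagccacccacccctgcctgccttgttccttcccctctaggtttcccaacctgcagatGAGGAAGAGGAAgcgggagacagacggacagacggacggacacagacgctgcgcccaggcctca
Csf2rb2: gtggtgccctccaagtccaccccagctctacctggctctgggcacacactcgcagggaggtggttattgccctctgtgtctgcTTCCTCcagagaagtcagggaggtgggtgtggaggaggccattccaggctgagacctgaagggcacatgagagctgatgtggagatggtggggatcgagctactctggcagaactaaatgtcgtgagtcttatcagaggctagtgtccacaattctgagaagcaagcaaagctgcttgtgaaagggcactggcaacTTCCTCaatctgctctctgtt
Csf2ra held 2 adjoining matches, beginning at positions -14 and -8 relative to the start, and Csf2rb2 held 2 on the opposite strand, at -167 and 29. Of 32817 promoter windows in the same table, 28.3% held at least 1 match, and 2 of the 6 members with a window did. A match of 6 letters is a description of the sequence and shows no binding.

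In the wild-type controls Csf2ra stood at 41.8, 52.2 and 47.4 CPM, in the IL-10 model at 101, 104, 112 and 95.7, and in DSS at 66.7, 78.9 and 221. The 4 mice of the IL-10 model lay close together at more than any control, and every DSS-treated mouse was above the controls too, with mouse 8 far above the other 2. In DNBS the values were 52.6, 52.9 and 52.5 CPM, just above the highest control. The rise was 2.19-fold in the IL-10 model (log2 1.13 ± 0.27 SE, adjusted p = 0.00129) and 2.59-fold in DSS (1.37 ± 0.28, adjusted p = 0.000725), which became 1.55-fold without mouse 8 (0.63 ± 0.18, adjusted p = 0.0163). For DNBS the log2 difference was 0.16 ± 0.28 (adjusted p = 0.764). The difference between DNBS and the IL-10 model passed the test itself (log2 -0.97 ± 0.27, adjusted p = 0.00785).

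Rag-deficient mice showed the same receptor chain at 31.0, 34.1 and 41.1 CPM in the Rag2-/- controls and at 64.7, 85.0, 60.9 and 62.2 in TRUC, so that all 4 TRUC mice exceeded all 3 controls. The libraries labelled Rag1-/- control read 38.7, 34.9 and 28.6 CPM, TCT 115, 78.0 and 106, and anti-CD40 57.4, 71.6 and 90.8, again without overlap. Csf2ra rose 1.93-fold in TRUC (log2 0.95 ± 0.27, adjusted p = 0.00638), 2.92-fold in TCT (1.54 ± 0.29, adjusted p = 0.000224) and 2.15-fold in anti-CD40 (1.11 ± 0.28, adjusted p = 0.0079). With the other controls the rises were 2.11-fold in TCT (adjusted p = 0.00612) and 2.07-fold in anti-CD40 (adjusted p = 0.00979). Csf2ra was the only member past the threshold in anti-CD40 with both control groups.

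Csf2rb and Csf2rb2 lie near each other on chromosome 15 (chr15:78325752-78353847, plus strand, and chr15:78282507-78305721, minus strand). They are near-copies: 12.3% of the 50-base windows of Csf2rb exons and 18.9% of those of Csf2rb2 occur in another gene, mostly in each other, so that the split of reads between them is uncertain. With their counts added together before the fit, all 42 calls over the models stayed the same, the summed gene being set against Csf2rb. Because both genes were called in the same models, this could not show whether the split of reads is right.

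The common beta chain Csf2rb read 7.23, 8.45 and 8.52 CPM in the wild-type controls, 33.8, 36.6 and 275 in DSS, 14.4, 14.8 and 19.3 in DNBS, and 26.0, 26.4, 41.3 and 25.8 in the IL-10 model. All 10 mice of these models lay above the 3 controls, and DSS mouse 8 was 7.50 times as high as the next DSS-treated mouse. Csf2rb rose 14.2-fold in DSS (log2 3.83 ± 0.55, adjusted p = 2.33e-05), or 4.36-fold without mouse 8 (2.13 ± 0.28, adjusted p = 1.86e-05), and 3.70-fold in the IL-10 model (1.89 ± 0.50, adjusted p = 0.00315). The DNBS difference, log2 1.00 ± 0.52, missed the threshold (adjusted p = 0.239) although the groups did not overlap. Lack of overlap, with higher values in the model, held for 15.6% of all genes in that comparison and for 4 of the 8 members.

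In the Rag2-/- controls Csf2rb stood at 5.57, 4.59 and 9.28 CPM and in TRUC at 29.9, 40.6, 34.1 and 19.0, a 4.75-fold rise (log2 2.25 ± 0.51, adjusted p = 0.00119). The libraries labelled Rag1-/- control gave 7.62, 11.3 and 9.12 CPM, TCT 64.6, 51.5 and 57.0, and anti-CD40 18.7, 22.2 and 13.3. TCT thus reached the highest levels after DSS mouse 8, while anti-CD40 stayed nearer to its controls without overlapping them. The rise in TCT was 6.15-fold (log2 2.62 ± 0.53, adjusted p = 0.000513) and 7.14-fold over the wild-type controls (adjusted p = 0.00042). In anti-CD40 the log2 difference of 0.94 ± 0.52 did not pass (adjusted p = 0.2), but it passed against the Rag2-/- controls (1.47 ± 0.53, adjusted p = 0.0463). TCT exceeded anti-CD40 directly by 1.68 ± 0.50 (adjusted p = 0.0212), a call that was lost without TCT mouse 1 or anti-CD40 mouse 6 or 8 (adjusted p from 0.0562 to 0.0826).

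Csf2rb2 was called in the same 4 models as Csf2rb. It read 4.19, 3.93 and 5.49 CPM in the wild-type controls, 19.2, 20.5 and 107 in DSS, 6.50, 6.74 and 9.46 in DNBS, and 14.6, 12.2, 17.2 and 11.8 in the IL-10 model. In the Rag2-/- controls it read 4.16, 2.60 and 5.21 CPM and in TRUC 10.7, 13.9, 9.61 and 6.84. The libraries labelled Rag1-/- control read 4.21, 4.56 and 4.30 CPM, TCT 37.6, 30.7 and 26.9, and anti-CD40 8.17, 9.51 and 6.31. No model overlapped its controls. The rises that passed were 10.7-fold in DSS (adjusted p = 1.21e-05; 4.39-fold without mouse 8), 3.08-fold in the IL-10 model (adjusted p = 0.00303), 2.56-fold in TRUC (adjusted p = 0.0135) and 7.27-fold in TCT (adjusted p = 4.14e-05). The TRUC call was lost without Rag2-/- control 2 (log2 1.12, adjusted p = 0.0728). Log2 differences of 0.74 ± 0.45 in DNBS and 0.87 ± 0.46 in anti-CD40 did not pass (adjusted p = 0.321 and 0.176).

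**Figure D2:**
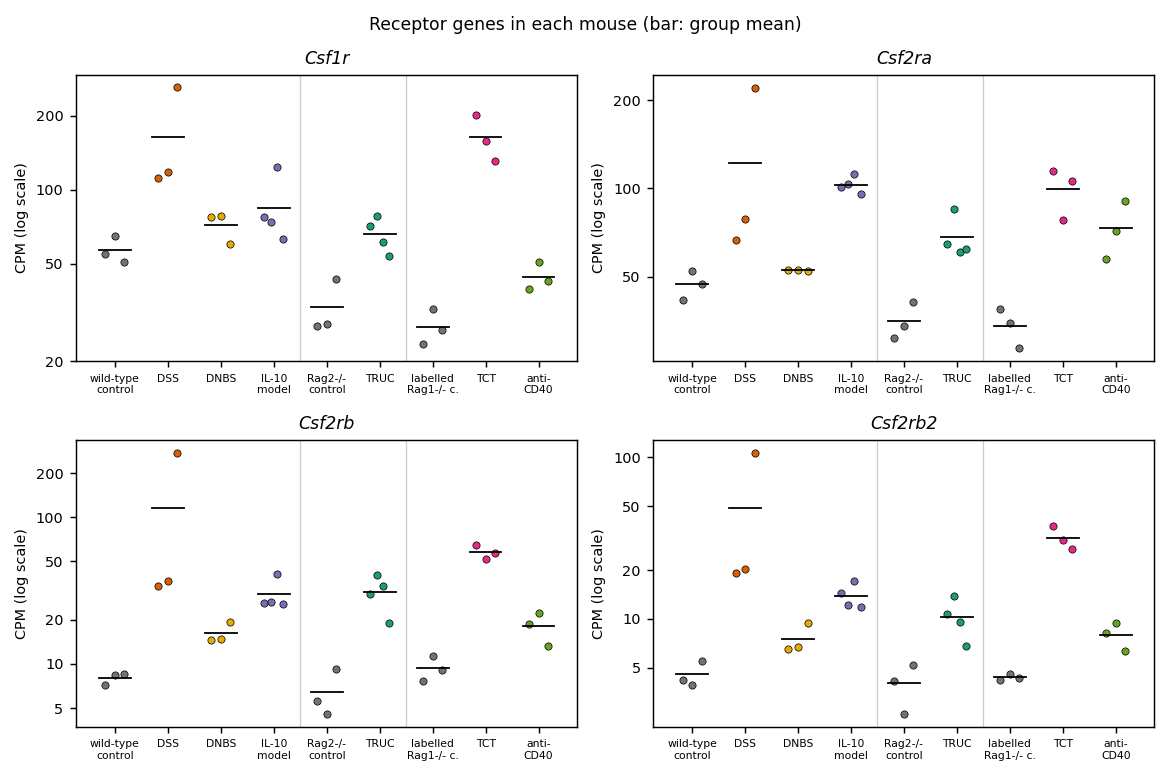
Level in CPM (log axis) of the 4 receptor genes in each of the 29 mice, with the group mean as a bar; grey points are controls and vertical lines separate the 3 sets of groups that share a control. DSS mouse 8 is the highest point of all 4 panels, at 262 CPM for Csf1r, 221 for Csf2ra, 275 for Csf2rb and 107 for Csf2rb2.

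Csf1r, the macrophage growth factor receptor, stands on chr18:61100598-61132149 (plus strand), and 15.1% of its exon bases are also covered by the antisense gene Hmgxb3, whose reads could not be told apart if strand was not used in counting. Its level differed between the controls: 54.5, 65.0 and 50.8 CPM in wild-type mice, 27.9, 28.3 and 43.2 in Rag2-/- mice, and 23.4, 32.8 and 26.8 in the libraries labelled Rag1-/- control. Every wild-type mouse was higher than every Rag-deficient control. Of the 8 members it alone differed between the 3 control groups (F test, adjusted p = 0.0261), where 11.4% of all genes did, and the call was lost without 1 of 4 control mice (wild-type 1 and 2, labelled Rag1-/- 2 and 4; adjusted p from 0.0609 to 0.132). Wild-type and Rag2-/- controls are both labelled Balb/C and differ in Rag genotype and in lymphocytes, which cannot be told apart, and the third control group differs in the labelled strain as well.

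In DSS Csf1r read 112, 118 and 262 CPM, a 2.88-fold rise (log2 1.53 ± 0.28, adjusted p = 0.000228) that was 2.02-fold without mouse 8 (adjusted p = 0.00408). TRUC mice read 71.3, 77.9, 61.5 and 53.5 CPM, all above their controls, a 1.99-fold rise (log2 0.99 ± 0.26, adjusted p = 0.00378). TCT mice read 203, 158 and 132 CPM, 5.93-fold above the labelled Rag1-/- controls (log2 2.57 ± 0.29, adjusted p = 3.63e-07) but 2.89-fold above the wild-type controls (1.53 ± 0.28, adjusted p = 0.000307). The choice of control thus set the size of the TCT rise, and both values passed. DNBS read 77.3, 78.1 and 60.3 CPM and the IL-10 model 77.5, 73.8, 124 and 63.0, both overlapping the wild-type controls, with log2 differences of 0.34 ± 0.27 (adjusted p = 0.458) and 0.58 ± 0.26 (adjusted p = 0.0634). The latter passed without mouse 4 of the IL-10 model (0.68, adjusted p = 0.0372). Anti-CD40 read 39.2, 50.6 and 42.6 CPM, above the labelled Rag1-/- controls by 0.67 ± 0.28 without passing (adjusted p = 0.0854). TCT was higher than anti-CD40 by 1.89 ± 0.28 (adjusted p = 2.71e-05).

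Myeloid marker genes moved with these receptors. Of 12 monocyte and macrophage markers, TRUC and TCT each had 11 higher, DSS 10, the IL-10 model 9 higher and 1 lower, anti-CD40 6 and DNBS 3. Every one was detected in each group. Without DSS mouse 8 the DSS count was 9. Their summed level ranged from 554 to 662 CPM in the wild-type controls, 427.3 to 552.2 in the Rag2-/- controls and 446.1 to 485 in the libraries labelled Rag1-/- control. It ranged from 1487 to 3492 CPM in DSS, 902.8 to 948.8 in DNBS, 1320 to 1963 in the IL-10 model, 1384 to 1675 in TRUC, 1704 to 2793 in TCT and 1149 to 1391 in anti-CD40. No model overlapped its controls in this sum. Of 10 neutrophil markers, 9 were higher in TRUC, DSS and the IL-10 model, 8 in DNBS and TCT and 6 in anti-CD40 (8 of the 9 then tested in DSS without mouse 8); their sum was 1700 to 2434 CPM in TRUC against 213.5 to 341.7 in the Rag2-/- controls, and of the list only Cxcr2 stood at 0, in all 3 control groups. The neutrophil sum leans on its most abundant gene: Ly6g alone averaged 371 CPM in DSS mice 5 and 6, whose sums were 550.5 and 808.3 CPM. Without mouse 8 Ly6g itself did not pass in DSS (edgeR adjusted p = 0.0515). In RNA of whole tissue, more cells of a type and more RNA per cell cannot be told apart, and the part of these cell types in the receptor changes was not tested.

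**Figure D3:**
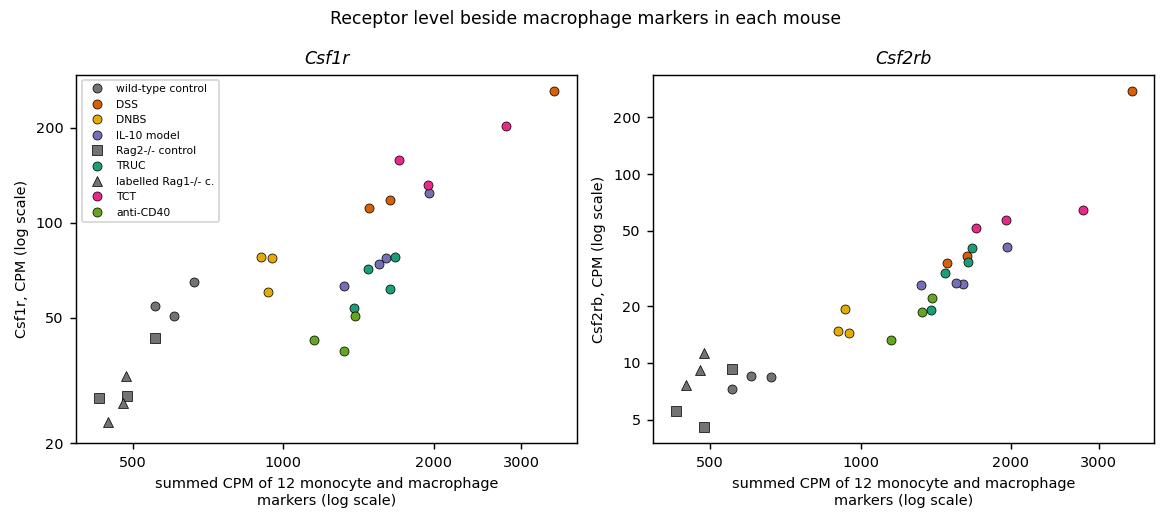
Level of Csf1r (left) and Csf2rb (right) in CPM against the summed CPM of 12 monocyte and macrophage markers, both on log axes, 1 point for each of 29 mice. DSS mouse 8 is the highest point on both axes of both panels. Csf1r in the 3 anti-CD40 mice (39.2 to 50.6 CPM) lies below that of the 3 DNBS mice (60.3 to 78.1 CPM) although their marker sums are higher, and its TRUC mean (66.1 CPM) lies below the DNBS mean (71.9 CPM) with higher sums too. Csf1r was already lower in the untreated Rag-deficient controls. It averaged 33.1 CPM in Rag2-/- mice, 27.7 in the libraries labelled Rag1-/- control and 56.8 in wild-type controls.

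Csf1, the main growth factor of tissue macrophages (chr3:107741048-107760469, minus strand), changed in only 2 of the 6 models. Wild-type controls read 19.5, 18.3 and 18.0 CPM, DSS 30.8, 33.5 and 55.4, DNBS 21.4, 29.1 and 25.3, and the IL-10 model 22.0, 24.1, 28.1 and 16.8. DSS and DNBS lay above all controls, and the IL-10 model straddled them. Csf1 rose 2.14-fold in DSS (log2 1.10 ± 0.21, adjusted p = 0.000406; 1.73-fold without mouse 8, adjusted p = 0.00711), while the differences of 0.44 ± 0.21 in DNBS and 0.29 ± 0.20 in the IL-10 model did not pass (adjusted p = 0.201 and 0.224).

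TCT mice held Csf1 at 46.7, 40.8 and 38.6 CPM against 16.3, 23.6 and 19.4 in the libraries labelled Rag1-/- control, a 2.12-fold rise without overlap (log2 1.09 ± 0.21, adjusted p = 0.000392), and 2.26-fold over the wild-type controls (adjusted p = 0.000308). Anti-CD40 mice read 25.6, 24.8 and 21.9 CPM, overlapping their controls (0.28 ± 0.21, adjusted p = 0.364). In TRUC the ligand read 20.2, 15.9, 18.9 and 20.2 CPM against 15.1, 14.2 and 23.7, a log2 difference of 0.09 ± 0.20 (adjusted p = 0.755), in the same mice whose Csf1r had risen 1.99-fold. TCT exceeded anti-CD40 by 0.80 ± 0.21 (adjusted p = 0.0088) and DSS exceeded the IL-10 model by 0.81 ± 0.20 (adjusted p = 0.00153; 0.50 without mouse 8, adjusted p = 0.0362).

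Il34, the second ligand of CSF1R and the one known from epidermis and brain (chr8:110741829-110805924, minus strand), moved by less. Wild-type controls read 11.2, 14.1 and 11.1 CPM, and the IL-10 model 15.3, 28.7, 17.1 and 15.1, with 1 mouse well above the other 3. DSS read 15.2, 17.6 and 18.7 CPM and DNBS 12.8, 13.0 and 13.0. The IL-10 model was 1.56-fold higher (log2 0.64 ± 0.18, adjusted p = 0.00514), or by 0.38 without mouse 2, the highest (adjusted p = 0.0356). The DSS groups did not overlap either, but the log2 difference of 0.49 ± 0.19 had an adjusted p of 0.0502. It became 0.43 without mouse 8 (adjusted p = 0.157) and passed without wild-type control 2 or DSS mouse 5 (adjusted p = 0.041 and 0.0446). DNBS differed by 0.09 ± 0.19 (adjusted p = 0.816).

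The Rag2-/- controls read 15.9, 18.4 and 14.6 CPM and the libraries labelled Rag1-/- control 11.1, 9.79 and 10.5, without overlap, so the choice of control mattered for this gene (F test over the 3 control groups, adjusted p = 0.0694). TRUC read 20.3, 22.3, 19.5 and 16.9 CPM (log2 0.28 ± 0.18, adjusted p = 0.216). TCT, at 16.6, 19.3 and 13.9 CPM, was 1.59-fold above the labelled Rag1-/- controls (0.67 ± 0.20, adjusted p = 0.0117; 0.55 and adjusted p = 0.0638 without TCT mouse 3) but not past the threshold against wild-type mice (0.45 ± 0.19, adjusted p = 0.0808). Anti-CD40, at 13.0, 16.9 and 17.0 CPM, was 1.49-fold above the labelled Rag1-/- controls (0.58 ± 0.20, adjusted p = 0.0361) and turned to -0.06 ± 0.19 against the Rag2-/- controls (adjusted p = 0.851). Its call was also lost without any 1 of the 3 controls or without anti-CD40 mouse 7 or 8 (adjusted p from 0.0551 to 0.137).

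Whether the balance of the 2 CSF1R ligands shifted was asked with the ratio of Il34 to Csf1 counts within each library, which does not depend on scaling. On the log2 scale the ratio fell from -0.62 ± 0.22 (SD, n = 3) in wild-type controls to -1.17 ± 0.34 (SD, n = 3) in DSS, without overlap, at an exact two-sided permutation p of 0.1, the smallest that 3 against 3 mice allow (Benjamini-Hochberg over 6 models, 0.4). In the other models the groups overlapped, with log2 differences of 0.16 in TRUC, -0.33 in DNBS, 0.33 in the IL-10 model, -0.45 in TCT and 0.27 in anti-CD40 (exact permutation p from 0.2 to 0.629; adjusted from 0.4 to 0.629). With the other controls the TCT difference was -0.73, without overlap (exact permutation p = 0.1), and the anti-CD40 difference turned to -0.55 (exact permutation p = 0.3). With 4 against 3 mice the smallest possible p was 0.0571, so no model could pass 0.05.

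**Figure D4:**
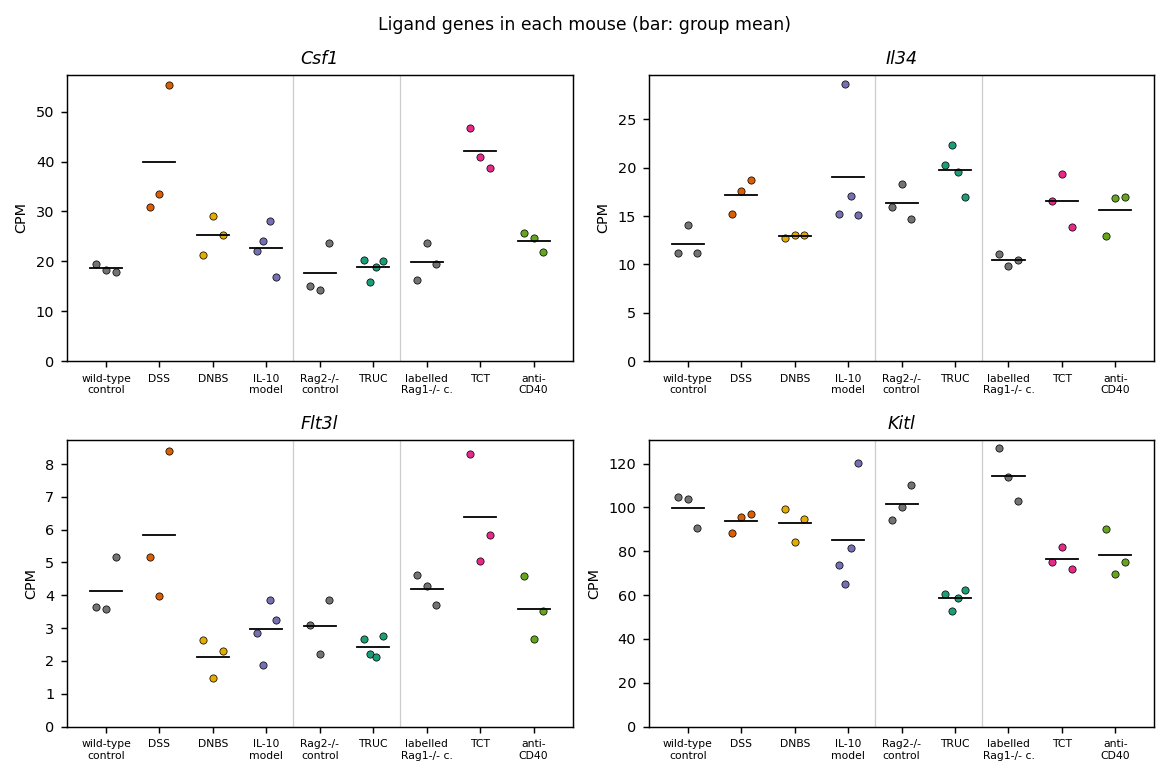
Level in CPM (linear axis from 0) of Csf1, Il34, Flt3l and Kitl in each of the 29 mice, with the group mean as a bar; vertical lines separate the sets of groups that share a control. Csf1 is highest in DSS (30.8 to 55.4 CPM) and TCT (38.6 to 46.7), and Kitl is lowest in the 4 TRUC mice (52.9 to 62.1 CPM, against 94.1 to 110 in their controls).

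Kitl, which encodes stem cell factor (chr10:100015630-100100416, plus strand), was the only member whose fall against its own control passed the threshold in any model. Its promoter window (chr10:100015571-100015870, plus strand, GRCm38.p6) is shown because it belongs to the ligand with that fall, and it held no GAGGAA on either strand.
Kitl: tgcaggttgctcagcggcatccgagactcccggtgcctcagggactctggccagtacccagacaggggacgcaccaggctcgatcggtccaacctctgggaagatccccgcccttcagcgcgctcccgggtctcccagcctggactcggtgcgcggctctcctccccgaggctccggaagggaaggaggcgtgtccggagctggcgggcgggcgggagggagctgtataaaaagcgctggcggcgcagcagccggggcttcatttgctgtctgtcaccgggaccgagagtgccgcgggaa
TRUC mice held Kitl at 60.6, 52.9, 58.8 and 62.1 CPM and their Rag2-/- controls at 94.1, 100 and 110, far from overlap. Kitl fell by 0.79 ± 0.14 on the log2 scale in TRUC (1.73-fold, adjusted p = 0.000123). The libraries labelled Rag1-/- control read 127, 114 and 103 CPM, TCT 75.1, 81.8 and 71.9, and anti-CD40 90.0, 69.7 and 75.3, and both models lay below all their controls. The log2 change was -0.59 ± 0.15 in TCT (adjusted p = 0.00504) and -0.55 ± 0.15 in anti-CD40 (adjusted p = 0.013). With the other controls these became -0.39 (adjusted p = 0.0554) and -0.37 (adjusted p = 0.0759), still without overlap and just short of the threshold, and the anti-CD40 call was lost without labelled Rag1-/- control 2 (adjusted p = 0.0544) or anti-CD40 mouse 7 (adjusted p = 0.0852).

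In wild-type controls Kitl stood at 105, 104 and 90.6 CPM, in DSS at 88.3, 95.7 and 97.2, and in DNBS at 99.4, 84.0 and 94.8. These models overlapped their controls, with log2 differences of -0.09 ± 0.15 and -0.11 ± 0.15 (adjusted p = 0.676 and 0.703), and of -0.12 in DSS without mouse 8. The IL-10 model read 73.6, 65.1, 81.6 and 120 CPM: 3 mice lay below all controls and number 4 above them. The log2 difference of -0.23 ± 0.14 (adjusted p = 0.176) became -0.45 ± 0.11 without that mouse (adjusted p = 0.00202). An F test of all 6 changes gave an adjusted p of 0.0696 for Kitl, and under 4 alternatives it passed: without mouse 4 of the IL-10 model (adjusted p = 0.00314) or mouse 2 (0.0365), with upper quartile scaling (0.0472) and with the filterByExpr filter (0.0444).

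The receptor of stem cell factor, Kit, was lower in TRUC (log2 -1.64 ± 0.25, 16.3 against 50.9 CPM, adjusted p = 2.04e-05), in the IL-10 model (-1.08 ± 0.25, adjusted p = 0.000873) and in TCT (-0.98 ± 0.27, adjusted p = 0.0068). Both markers listed for interstitial cells of Cajal, Kit and Ano1, were lower in TRUC and the IL-10 model, and 1 of the 2 in DSS and TCT. Their sum was 161.9 to 257.5 CPM in TRUC against 409.5 to 472.6 in the Rag2-/- controls. It was 88.3 to 155.9 CPM in DSS, where Kitl stayed within the range of its controls but for 1 mouse. Smooth muscle markers were lower in TRUC for 2 of 5 genes (23.4% of all genes) and in the IL-10 model for 4 of 5 (4858 of all 18616 genes). Of 6 tested mast cell markers 2 were higher in TRUC and 3 each in DSS (2 without mouse 8) and TCT. Of all genes 22.4%, 17.7% and 16.1% were higher in these models. The part of these cells in the level of Kitl was not tested.

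Flt3l, the dendritic cell growth factor (chr7:45129788-45136432, minus strand), was low throughout, from 1.47 CPM in a DNBS mouse to 8.39 CPM in DSS mouse 8. An unnamed gene on the same strand, Gm45713, covers 22.1% of its exon bases, where reads cannot be assigned to either gene with certainty. DNBS mice read 2.63, 1.47 and 2.30 CPM against 3.66, 3.59 and 5.16 in the wild-type controls, all lower than every control, yet the log2 difference of -0.94 ± 0.31 missed the threshold (adjusted p = 0.0661; 0.0406 without DNBS mouse 11). DSS mice read 5.16, 3.96 and 8.39 CPM (0.49 ± 0.29, adjusted p = 0.199; 0.15 and adjusted p = 0.77 without mouse 8). DSS and DNBS differed from each other by 1.44 ± 0.31 (adjusted p = 0.00214; 1.09 without mouse 8, adjusted p = 0.03). TCT read 8.29, 5.04 and 5.83 CPM against 4.62, 4.27 and 3.70 in the libraries labelled Rag1-/- control (0.60 ± 0.29, adjusted p = 0.126). In TRUC, the IL-10 model and anti-CD40 the log2 differences were -0.32, -0.47 and -0.23, with groups that overlapped. The receptor Flt3 was higher in DSS (1.11 ± 0.42, adjusted p = 0.0439; 0.87 and adjusted p = 0.18 without mouse 8) and in the IL-10 model (1.13 ± 0.40, adjusted p = 0.022).

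Csf3, which encodes G-CSF (chr11:98701263-98703629, plus strand), had at most 8 reads in any library outside DSS. Counts were 10, 23 and 468 in the 3 DSS-treated mice, or 0.629, 1.57 and 37.4 CPM, against 0, 0 and 1 in the wild-type controls and at most 2 in any of the 9 control libraries. All 3 DSS-treated mice lay above the limit of 3 reads and all controls below it. Of 537 Csf3 reads in the 29 libraries, 468 came from DSS mouse 8, and without that mouse the gene fell under the count minimum and was not tested. With the controls set at 3 reads per library, Csf3 was at least 58.7-fold higher in DSS, at least 4.90-fold higher in the other 2 DSS-treated mice and at least 166-fold higher in mouse 8. Elsewhere counts reached 8 in mouse 4 of the IL-10 model, or 0.836 CPM, which was above the 0.629 CPM of DSS mouse 5. They reached 5 in DNBS mouse 14 (0.387 CPM) and were between 0 and 3 in TRUC, TCT and anti-CD40.

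Csf3r, the receptor of G-CSF and a neutrophil gene, was higher in all 6 models. Its log2 rise was largest in DSS (6.28 ± 0.78, or 4.63 ± 0.55 without mouse 8) and TRUC (5.73 ± 0.77, 37.1 against 0.686 CPM), followed by TCT (5.48 ± 0.79), the IL-10 model (4.49 ± 0.74), DNBS (3.68 ± 0.76) and anti-CD40 (3.24 ± 0.81) (adjusted p from 4.91e-06 to 0.00791). The 4 TRUC mice, whose neutrophil marker sum was the highest of the groups but for DSS mouse 8, had Csf3 counts of 3, 1, 2 and 2. In no group other than DSS did every mouse exceed 3 Csf3 reads.

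Csf2, which encodes GM-CSF (chr11:54247271-54249667, minus strand), had 32 reads in all 29 libraries, and 17 libraries had none. DSS mouse 8 held 14 of them (1.12 CPM), TRUC mice held 4, 0, 2 and 1, and no control library held more than 1. Only 2 libraries had more than 3 reads. At this depth no difference could be read for Csf2 in models other than through DSS mouse 8, and the other 2 DSS-treated mice had 0 reads, which allows up to 3.

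**Figure D5:**
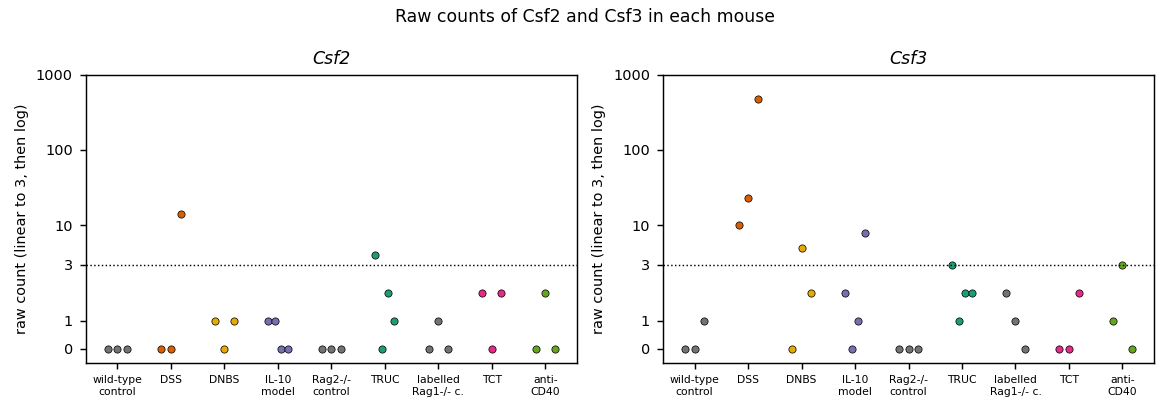
Raw read counts of Csf2 and Csf3 in each of the 29 mice, on an axis that is linear to 3 and logarithmic above; the dotted line marks 3 reads. For Csf3 the 3 DSS-treated mice (10, 23 and 468 reads) stand above the line with 1 DNBS mouse and 1 mouse of the IL-10 model, and for Csf2 DSS mouse 8 (14 reads) and 1 TRUC mouse (4 reads) do.

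Per kilobase of exon, so that genes can be set side by side, the most abundant members in untreated wild-type colon were Kitl at 16.9 ± 1.36 and Csf2ra at 16.4 ± 1.81 CPM per kb (SD, n = 3), which did not differ beyond their spread. Csf1r followed at 9.84 ± 1.28, Il34 at 6.20 ± 0.87 and Csf1 at 3.52 ± 0.15, each apart from its neighbours. Csf2rb at 1.11 ± 0.10, Flt3l at 1.07 ± 0.23 and Csf2rb2 at 0.957 ± 0.18 could not be ordered. Il34 thus exceeded Csf1 per kb in wild-type colon, whereas in CPM Csf1 was the higher (18.6 against 12.2). The order per kb rests on the length of all annotated exons of a gene, 1959 bases for Il34 and 5281 for Csf1. The transcript forms present were not determined.

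The 6 models were also tested against one another. The change against own control differed between models for 6 of the 8 members (F test, adjusted p from 1.11e-05 for Csf1r to 0.00897 for Csf2ra), beside 60.5% of all genes tested, and Kitl and Il34 did not pass (adjusted p = 0.0696 and 0.106). DSS was higher than DNBS for 6 members (11.4% of all genes), but without DSS mouse 8 the calls for Csf1, Csf1r and Csf2ra were lost, leaving Csf2rb, Csf2rb2 and Flt3l. The Csf1 call was also lost without DNBS mouse 11 or 16 (adjusted p = 0.109 and 0.0639). DSS was higher than the IL-10 model for 5 members (25.1% of all genes). Without mouse 8 only Csf1 remained higher, and Csf2ra turned to being lower in DSS (log2 -0.50 ± 0.18, adjusted p = 0.0246). DNBS was lower than the IL-10 model for 2 members, Csf2ra and Il34 (17.4% of all genes). The Il34 difference, log2 -0.55, fell to -0.29 without mouse 2 of the IL-10 model (adjusted p = 0.137), and its call was lost without DNBS mouse 11 or 14 as well (adjusted p = 0.0802 and 0.0638). TCT was higher than anti-CD40 for 4, Csf1, Csf1r, Csf2rb and Csf2rb2 (11.1% of all genes). These groups also differed in Rag1 and Rag2 transcript, so that colitis model and Rag genotype cannot be told apart in that comparison.

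Genes that work beside these ligands and receptors were described from 4 lists of known roles. For scale, of all genes tested 22.4% were higher in TRUC, 17.7% in DSS and 3.95% in DNBS. In the IL-10 model 27.2% were higher, in TCT 16.1% and in anti-CD40 10.9%. The 2 of 7 partners and 4 of 13 lineage factors higher in TRUC lay close to its share. No list was tested as a set. Without DSS mouse 8 their DSS counts were lower: 3 of 7 partners higher, 11 of 24 signalling genes higher and 3 lower, 4 of 13 lineage factors higher, and 4 of 9 upstream cytokines higher. Among 9 partner ligands and receptors, 7 of which were tested, 2 were higher and 1 lower in TRUC, 4 higher in DSS, 2 higher in DNBS, 4 higher and 1 lower in the IL-10 model, 4 higher and 1 lower in TCT, and 2 higher in anti-CD40. Il3ra, the alpha chain that pairs with the beta chains for IL-3, was higher in every model, from log2 1.24 ± 0.27 in DSS to 2.32 ± 0.26 in the IL-10 model (adjusted p at most 0.00838; 0.73 ± 0.23 in DSS without mouse 8, adjusted p = 0.0276). Il5ra, the alpha chain of the IL-5 receptor, was higher in DSS (5.20 ± 0.73, 24.0 against 0.642 CPM, adjusted p = 2.58e-05; 3.61 ± 0.53 without mouse 8) and TCT (5.69 ± 1.25, 1.88 against 0.0245 CPM, adjusted p = 0.00136). Ptprz1, an alternative receptor of IL-34, was higher in TCT alone of the 6 models (1.32 ± 0.32, adjusted p = 0.00296).

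Of 24 signalling genes downstream of these receptors, 13 were higher and 3 lower in TRUC, 19 and 2 in DSS, 4 and 2 in DNBS, 17 and 3 in the IL-10 model, 13 and 2 in TCT, and 7 and 3 in anti-CD40. Their median log2 change ran from 0.35 in DNBS to 1.07 in DSS. Socs1 and Socs3, feedback inhibitors of cytokine signalling, were higher in all 6 models, Socs3 by 2.43 ± 0.60 in TCT to 5.39 ± 0.69 in DSS (adjusted p at most 0.0146; 4.56 ± 0.63 in DSS without mouse 8, where Socs1 no longer passed, adjusted p = 0.0639). Tyrobp, an adaptor of myeloid receptors, was also higher in all 6, from 1.05 ± 0.32 in DNBS to 2.78 ± 0.34 in TCT (adjusted p at most 0.0478). The kinase gene Pim1 was higher in 5 models, all but DNBS (log2 0.50 there), and Pik3cd in 4, TRUC, DSS, the IL-10 model and TCT. Cbl, a ubiquitin ligase that marks CSF1R and KIT for degradation, and Socs2 were lower in all 6 models, Cbl by log2 -0.49 ± 0.14 in TRUC to -0.996 ± 0.14 in the IL-10 model (adjusted p at most 0.018 in every model), and Socs2 by -0.84 ± 0.24 in DNBS to -1.81 ± 0.26 in anti-CD40 (adjusted p at most 0.0417); these 2 genes were picked out after their values were seen.

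Among 13 lineage factors, 4 were higher and 2 lower in TRUC, 7 and 1 in DSS, none in DNBS (edgeR; 6 had an unadjusted p under 0.05, among them Spi1 at log2 1.09 ± 0.35, adjusted p = 0.0638), 10 and 0 in the IL-10 model, 7 and 0 in TCT, and 4 and 1 in anti-CD40. Spi1 was higher in the other 5 models, by 1.54 ± 0.36 in anti-CD40 to 2.89 ± 0.37 in TCT, and so were Cebpb, a factor of inflammatory myeloid genes, and Irf8, a factor of monocytes and dendritic cells, which did not pass in DSS without mouse 8 (0.67 ± 0.37, adjusted p = 0.205). Batf3, required for cross-presenting dendritic cells, was higher in 4 models, and Irf4 in the IL-10 model (1.46 ± 0.37) and TCT (1.91 ± 0.46). Cebpe, a factor of granulocyte maturation, was below 1.1 CPM in every group and passed in DSS (not without mouse 8, adjusted p = 0.233) and anti-CD40. Of 9 cytokines known to induce colony-stimulating factors, 4 were higher in TRUC, 8 in DSS, 1 in DNBS, 5 in the IL-10 model, 4 in TCT and 2 in anti-CD40, and 1 was lower in TCT and 1 in anti-CD40.

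Il1b rose in all 6 models, most in DSS (474 against 1.35 CPM, log2 8.47 ± 1.07, adjusted p = 6.34e-06; 5.63 ± 0.62 without mouse 8) and least in anti-CD40 (10.1 against 1.30 CPM, 2.94 ± 1.00, adjusted p = 0.0386). Tnf rose in 5, all but DNBS, by 3.52 ± 0.87 to 5.89 ± 0.89. Il6 was past the threshold in DSS (15.6 against 0.0476 CPM, adjusted p = 0.000327; 0.787 CPM and adjusted p = 0.0214 without mouse 8) and in no other model, and Il17a in DSS and the IL-10 model (adjusted p = 0.00282 and 0.0211). Il1a and Ifng each rose in 4 models, TRUC, DSS, the IL-10 model and TCT. Without mouse 8 the DSS calls for Il17a and Ifng were lost (adjusted p = 0.0753 and 0.273).

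The genes whose log2 CPM followed each tested member most closely over the 29 mice were named by their Pearson correlation, which is a description over mice that share libraries, depth and the strong difference between models. Csf1r went with Nckap1l (0.97), Cyth4 (0.97) and Fyb (0.97), Csf2ra with Spi1 (0.93), Unc93b1 (0.93) and Serpinb6b (0.92), and Csf2rb with Csf2rb2 (0.97), Mefv (0.97) and Slc15a3 (0.97). Csf2rb2 also went with Dram1 (0.97) and Igsf6 (0.96). Csf1 went with Traf3 (0.92), Lrrc8c (0.88) and Limk1 (0.87), and Il34 with Pde9a (0.82), Atp6v1b2 (0.81) and Wsb2 (0.79). No companions are given for Csf3, because 468 of its 537 reads came from DSS mouse 8. Flt3l went with Mapk8ip3 (0.82), Myo9b (0.77) and Gm42372 (0.76), and Kitl with Dpyd (0.89), Crim1 (0.88) and Fam189a2 (0.87). The receptor genes had closer companions than Il34 or Flt3l.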

How the data were processed

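Per the labels, poly(A) RNA of colon segments (RIN above 7) was made into libraries, and the submitters' processing notes name Trimmomatic, HISAT2, HTSeq and the build GRCm38, with versions and strand setting not given in the sources used here. The authors deposited raw whole-number read counts per Ensembl gene for 29 mice, not normalized; 92 spike-in entries were at 0 in total and were left out. Symbols were matched for 54409 of 54532 genes. Groups were taken from the labels. Nothing in them names a batch or date, nor separate litters or cages, so p-values measure the spread between these mice. No pair of replicates agreed within sampling noise (over 33 pairs, chi-square was at least 3.65 per degree of freedom). Precision from depth covers counting error only.

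Genes that averaged at least 3 reads over all mice were fitted in 1 model of all 9 groups with edgeR 4.0.16 in R 4.3.3 (TMM scaling, glmQLFit, glmQLFTest), with Benjamini-Hochberg adjustment over 18616 genes and a threshold of 0.05. Standard errors were derived from the fold change and its F statistic (|log2 fold change| / √F). Csf3, which met the minimum only through DSS mouse 8, was left out of member tests and counts. The fit was checked on simulated counts. DESeq2 1.42.0, other scalings, filters, controls and omitted mice were tried. The ratio of Il34 to Csf1 used 0.5 added to both counts and an exact permutation test (SciPy 1.17.1). Correlations used log2 CPM (prior count 2) of genes averaging at least 10 reads. Promoter sequences are those of RefSeq (GRCm38.p6).

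All 10 members were named, with up to 6 genes of each pathway list by mean absolute log2 change among those called in at least 1 model, and 3 genes nearest each tested member by correlation. One gene chosen by this rule is not reported here. Members, lists and tests were chosen with earlier results of these data known.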

Additional observations from a re-analysis of the deposited data

Results flagged for a closer look

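In groups of 4 mice, 3 of the 20 sets of member values tested held a mouse whose gap to the nearest other mouse, as a share of the whole range, exceeded Dixon's 95% critical value; chance gives this in about 1 in 20 sets. They were Csf2ra in TRUC (0.842, mouse 3 at 85.0 CPM against 60.9 to 64.7), Csf2rb in the IL-10 model (0.963, mouse 3 at 41.3 CPM against 25.8 to 26.4) and Il34 in the IL-10 model (0.859, mouse 2 at 28.7 CPM against 15.1 to 17.1). Groups of 3 mice, and so DSS mouse 8, could not be tested in this way.

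Between models that share a control group, 17 log2 differences of members passed the edgeR test. DSS was above DNBS by 0.66 for Csf1, 1.18 for Csf1r, 1.21 for Csf2ra, 2.83 for Csf2rb, 2.69 for Csf2rb2 and 1.44 for Flt3l. It was above the IL-10 model by 0.81 for Csf1, 0.95 for Csf1r, 1.94 for Csf2rb, 1.80 for Csf2rb2 and 0.97 for Flt3l. DNBS differed from the IL-10 model by -0.97 for Csf2ra and -0.55 for Il34. TCT was above anti-CD40 by 0.80 for Csf1, 1.89 for Csf1r, 1.68 for Csf2rb and 1.99 for Csf2rb2, groups whose Rag1 and Rag2 transcripts differed as well. The values for DSS rest in part on mouse 8, without which 3 of the 6 above DNBS and 1 of the 5 above the IL-10 model still passed.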

How the results depend on the processing

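Leaving out 1 mouse of the groups compared at a time, the number of members called ranged from 4 to 5 in TRUC, 5 to 6 in DSS, 0 to 1 in DNBS, 4 to 6 in the IL-10 model, 6 to 7 in TCT and 1 to 3 in anti-CD40. DSS mouse 8 thus stayed in the fits behind the ranges of the other models, although all 9 groups shared 1 fit. Without it the standard error of Csf2rb in DSS fell from 0.55 to 0.28. Its effect on the calls in the other models was not tested. For differences between models it ranged from 3 to 6 (DSS and DNBS), 2 to 6 (DSS and the IL-10 model), 1 to 3 (DNBS and the IL-10 model) and 3 to 5 (TCT and anti-CD40), from 6 to 7 over all 6 models and from 0 to 1 over the 3 control groups. The log2 ratio of Il34 to Csf1 ranged from -0.15 to 0.38 in TRUC, turning its sign without Rag2-/- control 4, and from -0.67 to -0.36 in DSS, -0.44 to -0.21 in DNBS, 0.15 to 0.48 in the IL-10 model, -0.63 to -0.27 in TCT and 0.09 to 0.45 in anti-CD40. Csf2ra in DSS against the IL-10 model ranged from -0.50, without DSS mouse 8, to 0.54.

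Fitting the 2 groups alone, in edgeR or DESeq2, raised the count from 0 to 1 in DNBS (Csf2rb) and from 3 to 6 in anti-CD40, adding Csf1r, Csf2rb and Csf2rb2. The edgeR fit of 2 groups lost Csf2ra in DSS (adjusted p = 0.0623) and Il34 in the IL-10 model (0.0649), and DESeq2 added Csf1r in the IL-10 model (0.0396); the cause was not tested. Il34 in DSS passed with RLE size factors (0.0404) and with filterByExpr (0.0302). At an adjusted p under 0.01 the count fell from 3 to 1 in anti-CD40, from 2 to 1 between DNBS and the IL-10 model and from 1 to 0 over the controls. Against the Rag2-/- controls, Il34 in anti-CD40 turned to -0.062. Upper quartile scaling moved the median of all genes to -0.14 in TRUC and -0.18 in the IL-10 model, and with it Kitl passed in the IL-10 model (-0.40, adjusted p = 0.0236).

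With the replicate number as a block, 2 members rather than 5 passed in TRUC: Csf1r (adjusted p = 0.0628), Csf2ra (0.139) and Csf2rb2 (0.0749) no longer did, and no call changed in the IL-10 model. Same-numbered mice did not deviate together (correlations from -0.0518 to 0.0556), so the numbers do not pair the mice. No paired analysis was possible because DSS, DNBS, TCT and anti-CD40 share fewer than 2 numbers with their controls.

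Csf2 and Csf3 were limited by depth, and Csf2rb and Csf2rb2 by shared sequence. Groups of 3 or 4 mice limit every comparison, and 1 DSS-treated mouse set the size of the DSS changes.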
